A study of Mus musculus with 6 samples.

Results

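The cells described here are the NK and T cells of H22 tumors, the class that the deposited annotation calls NK/T cells. They were chosen by that annotation alone, and they numbered 2490 of 58794 annotated cells. H22 is a mouse hepatocellular carcinoma line, implanted here into the livers of wild type male C57BL/6J mice. Tumors of 3 control mice kept under standard housing and of 3 mice exposed to chronic stress (chronic unpredictable mild stress) were each made into 1 10x Genomics library, so the mouse is the replicate and the label of every group carries the same genotype. The paper places the implantation after the stress protocol and its behavioral evaluation. The control mice held 93, 674 and 126 NK/T cells, and the stress mice held 269, 814 and 514. They made up 0.883%, 5.74% and 1.36% of annotated cells in the controls and 3.72%, 8.62% and 4.86% in the stressed mice. The groups overlapped (two-sided exact permutation test, p = 0.30). A unique molecular identifier (UMI) marks single RNA molecules before amplification and so lets each be counted once, and the median NK/T cell carried 2958, 3153 and 4376.5 UMIs in the controls and 4477, 4876.5 and 5923 in the stressed mice. The stress libraries were therefore the deeper ones per NK/T cell, in all 3 cases. The deposited matrices of the control libraries name Cell Ranger 9.0.0 and those of the stress libraries 7.1.0, so an effect of stress and one of the counting version cannot be told apart here. No barcode was shared between NK/T cells of different libraries.

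T cells recognise antigen through a receptor of paired chains, alpha with beta or gamma with delta, that signals through the CD3 complex. CD8 T cells kill target cells with perforin and granzymes, CD4 T cells act mainly through cytokines and costimulation, and regulatory T cells among them restrain both. NK cells kill with the same granule proteins but use germline-encoded receptors that signal through adaptors such as Tyrobp and Fcer1g, and in the liver they are abundant beside related type 1 innate lymphoid cells. Chronic antigen and tumor surroundings are known to raise inhibitory receptors such as PD-1 (Pdcd1) on T cells.

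Markers of the label were high in these cells, which cannot test it, since the study annotated its clusters by marker genes of these same data. Levels are given as CPM, the UMIs of a gene per 1000000 UMIs of the class named. Ccl5, a chemokine of effector lymphocytes, stood at 5793 CPM in NK/T cells and at most 537 CPM elsewhere, in dendritic cells. Nkg7, a granule protein, was at 1235 CPM against at most 107 CPM in neutrophils. The CD3 chain Cd3g reached 1094 CPM, the receptor beta constant gene Trbc2 820 CPM, the granzyme Gzmb 659 CPM and the thymocyte adaptor Themis 473 CPM, and no other class exceeded 53.6 CPM for any of these 4 genes. Among genes above 100 CPM, those with the highest ratio to the next class were the chemokine Xcl1 (275 CPM, next class 2.39 CPM), Gzma (708 and 29.1 CPM), the cytokine Ifng (187 and 7.93 CPM) and the granzyme Gzmk (112 CPM). These values describe how the class was annotated and were not tested.

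UMIs of inhibitory receptors were found in many of these cells. Each share is set beside that in endothelial cells, a class of another lineage with a median of 4538 UMIs against 4403 in NK/T cells, since free RNA can give a UMI to a cell that does not express the gene. Ctla4 was seen in 78.9% of NK/T cells and 11.6% of endothelial cells. Those of Tox, a factor of exhausted T cells, were found in 71.4% and 1.15%, and those of Pdcd1 in 62.9% and 0.770%. Havcr2 was found in 39.0% and 1.20%, and in 33.5% of monocytes, Lag3 in 26.8% and 0.875% and Tigit in 25.5% and 0.490%. Of the effector genes, Gzmb was found in 54.3% and 0.936%, the pore-forming Prf1 in 36.4% and 0.604%, Ifng in 35.5% and 0.420% and Gzma in 22.6% and 0.376%. The cytokine genes Tnf (7.75% and 2.44%) and Il2 (2.97% and 1.47%) were closer to the endothelial share. The glucocorticoid receptor Nr3c1, which binds a stress hormone, was at 281 CPM in NK/T cells against 154 CPM in endothelial cells, the next class.

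A cell was called T cell receptor (TCR) bearing when it held at least 1 UMI of the constant genes Trac, Trbc1 or Trbc2. Trac lies on chromosome 14 at chr14:54220521-54224206, Trbc1 at chr6:41538218-41539881 and Trbc2 at chr6:41546730-41548352, all on the plus strand of GRCm38. By this rule 2397 cells (96.3%) were TCR-bearing and 93 cells were TCR-lacking. The TCR-bearing share was 96.8%, 95.1% and 98.4% in the controls and 97.0%, 96.6% and 96.3% in the stressed mice, and the groups overlapped (two-sided exact permutation test, p = 0.90). TCR-lacking cells were shallower, with a median of 2180 UMIs against 4495. With every cell thinned to 1000 UMIs, which left out 22 cells, the share was 88.0%, 73.4% and 81.0% in the controls and 79.0%, 72.6% and 75.3% in the stressed mice. The same rule after thinning marked 69 of 10823 endothelial cells (0.638%) and 75 of 6171 monocytes (1.22%), classes that should lack the receptor and had median depths of 4538 and 5291 UMIs before thinning, against 4403 for NK/T cells.

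**Figure D1:**
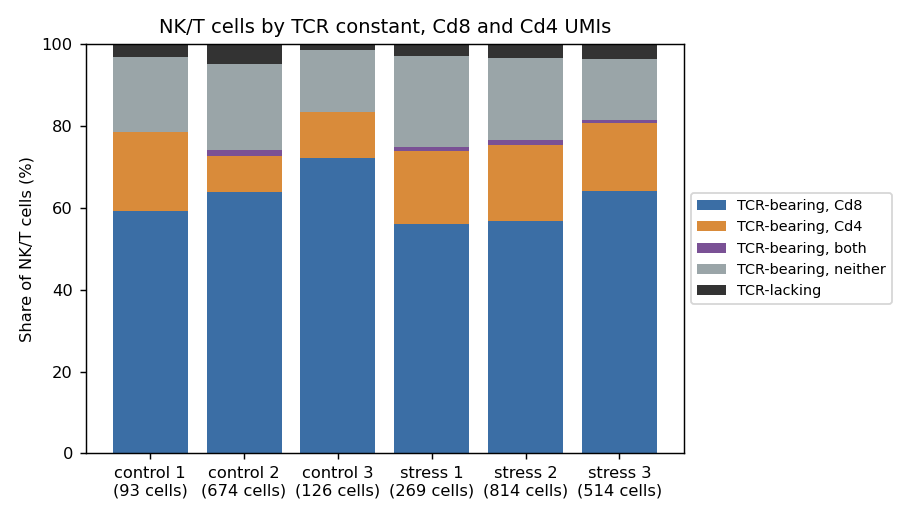
Share of NK/T cells by class, in percent (vertical axis), as 1 stacked bar per mouse. The parts are TCR-bearing cells with Cd8, with Cd4, with both or with neither, and TCR-lacking cells. The TCR-bearing parts together make up 95.1% to 98.4% of each bar, and the Cd8 part is the largest in every mouse.

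Most receptor UMIs came from Trbc2. Trbc1 and Trbc2 together were found in 933 cells, Trbc2 without Trbc1 in 1229, Trbc1 without Trbc2 in 150 and Trac as the only constant gene in 85. A gamma-delta constant gene, Trdc, was found in 54 cells. The beta constant genes are near-identical copies in their coding part, which is compared here. Over 518 coding bases of the GENCODE M21 transcripts, 495 (95.6%) were identical and 23 differed. The stretch from base 403 to base 482 holds 13 of these differences, in capitals, and is printed 5′ to 3′:
Trbc1: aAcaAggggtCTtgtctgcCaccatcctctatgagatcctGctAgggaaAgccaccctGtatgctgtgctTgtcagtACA
Trbc2: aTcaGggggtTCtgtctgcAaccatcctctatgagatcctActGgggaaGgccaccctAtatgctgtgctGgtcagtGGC
A read that covers none of the differing bases cannot be given to 1 copy, so each Trbc count below is uncertain to that extent. The study's primers were poly(dT), so the bases after the coding part, 219 in Trbc1 and 174 in Trbc2, also bear on a count. They were not compared here.

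TCR-bearing cells were sorted by the coreceptors of the T cell lineages. Cd8a or Cd8b1 without Cd4 was found in 1519 cells (the Cd8-bearing cells), Cd4 without either in 376 (the Cd4-bearing cells), both in 25 and neither in 477. The Cd8-bearing share of TCR-bearing cells was 61.1%, 67.1% and 73.4% in the controls and 57.9%, 58.8% and 66.7% in the stressed mice. The stress values lay lower on average but overlapped the control values (p = 0.20 in a two-sided exact permutation test, 0.70 after Benjamini-Hochberg adjustment over 7 shares). With cells thinned to 1000 UMIs the groups did not overlap, at 45.7%, 46.6% and 45.1% against 29.4%, 35.4% and 38.0% (exact permutation test, p = 0.10, the smallest that 3 mice against 3 allow). The Cd4-bearing share was 20%, 9.20% and 11.3% in the controls and 18.4%, 19.3% and 17.2% in the stressed mice (exact permutation test, p = 0.40). After thinning, the share with neither coreceptor was 44.4%, 48.7% and 53.9% in the controls and 63.5%, 57.0% and 55.5% in the stressed mice, again without overlap (exact permutation test, p = 0.10), whereas the unthinned shares overlapped (p = 0.70). Foxp3, the factor that defines regulatory T cells, was found in 80 NK/T cells, 4.301%, 4.01% and 0.794% of those in the controls and 2.97%, 2.95% and 3.11% of those in the stressed mice (exact permutation test, p = 1.0). It was found in 29 of 376 Cd4-bearing cells (7.71%) and 6 of 1519 Cd8-bearing cells, so that most of the 80 lay in neither class.

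Cd4-bearing and Cd8-bearing cells of the same mouse differed in the genes of helper and killer T cells. UMIs were summed per class and mouse and compared with edgeR's quasi-likelihood test, with the mouse as a block and Benjamini-Hochberg adjustment over all genes tested, and Cd4, Cd8a and Cd8b1 were left out of the calls because they define the classes. Of 7250 genes tested, 704 passed an adjusted p of 0.05 (9.71%), 465 higher (6.41%) and 239 lower (3.3%) in Cd4-bearing cells. The median log2 fold change of all genes was -0.01. This comparison, and that of NK receptor-bearing cells below, was added after the data were seen.

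Cytotoxic genes were lower in Cd4-bearing cells. Gzma stood at 674, 487, 680, 1124, 430 and 324 CPM in the Cd8-bearing cells of control mice 1 to 3 and stress mice 1 to 3, and at 0, 4.29, 0, 0, 82.8 and 5.66 CPM in the Cd4-bearing cells of the same mice. Every mouse had less in its Cd4-bearing cells, with a log2 fold change of -4.51 ± 0.45 (SE; adjusted p = 6.78e-07, edgeR's quasi-likelihood test). Prf1 was at 149 to 266 CPM in Cd8-bearing cells and 0 to 47.2 CPM in Cd4-bearing cells (-3.46 ± 0.25, adjusted p = 9.58e-09, edgeR), without overlap. Gzmb was at 443 to 1083 CPM against 8.87 to 206 CPM (-2.71 ± 0.23). Of the 11 cytotoxic granule genes tested, 9 fell and 1 rose, Srgn, which encodes the granule proteoglycan serglycin. Their median log2 fold change was -1.13. The killer lectin receptors moved the same way, with Klre1 at -4.65, Klrk1, which encodes NKG2D, at -4.45 and Klrc1 at -3.27, and 9 of 15 tested genes of the NK and innate lymphoid list were lower with 1 higher, Nfil3. Of 14 proliferation genes, 9 were lower in Cd4-bearing cells (median -0.59), and Mki67 differed by -0.66.

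Genes of the regulatory T cell list were higher in Cd4-bearing cells, as were several other named genes. Tnfsf8, the ligand of CD30, was at 2.86, 11.2, 4.61, 8.90, 4.47 and 10.1 CPM in Cd8-bearing and 59.7, 309, 169, 309, 243 and 248 CPM in Cd4-bearing cells of the same mice in order. The classes did not overlap, and the log2 fold change was 5.01 ± 0.19 (adjusted p = 9.86e-13, edgeR). Tnfrsf4, which encodes the costimulatory receptor OX40, was at 45.7 to 154 CPM against 550 to 778 CPM (2.85 ± 0.17, adjusted p = 1.00e-09, edgeR). The transcription factor Maf rose by 3.52 ± 0.17 and the chemokine receptor Ccr8, known from tumor regulatory T cells, by 3.39 ± 0.32. All 6 tested genes of the regulatory T cell list were higher (median 1.61), among them Ikzf2 (1.81), Il2ra, the high-affinity chain of the IL-2 receptor (1.41), and Ctla4 (0.87), while Foxp3 itself did not pass the filter on low counts. Of 12 checkpoint genes 5 were higher and 1 lower, and Pdcd1 (-0.41, adjusted p = 0.136, edgeR) did not pass. Of 10 glucocorticoid response genes 5 were higher (median 0.64), among them Dusp1 (1.39), Fkbp5 (0.78) and the receptor Nr3c1 itself (0.70). Ifng was higher in Cd4-bearing cells by 0.82 (adjusted p = 0.0244, edgeR) and in 4 of 6 mice.

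One lncRNA, picked out after its values were seen, was seen in Cd8-bearing and not in Cd4-bearing cells. Gm44174 held 787 of 12728913 UMIs in Cd8-bearing cells and 0 of 2520396 in Cd4-bearing cells, which is at least 51.9-fold lower against a floor of 3 UMIs over the class. It lies at chr6:71353035-71373284 on the plus strand of GRCm38, between Cd8b1 (chr6:71322788-71337494) and Cd8a (chr6:71373427-71379173), and ends 143 bases before Cd8a begins. Reads that run from one annotation into the other cannot be told apart from its own transcripts here, and Cd8a and Cd8b1 define the classes. Over all NK/T cells it was found in 579 cells (23.3%) at 44.9 CPM, against at most 6.86 CPM in any other class.

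NK cells were looked for through Ncr1 (NKp46, chr7:4337724-4345164, plus strand) and Klrb1c (NK1.1, chr6:128778485-128789215, minus strand). UMIs of either were found in 110 NK/T cells, and the 107 of them without Cd8a, Cd8b1 or Cd4 are called NK receptor-bearing here, 2, 29 and 5 in the controls and 15, 37 and 19 in the stressed mice. All 107 held Fcer1g UMIs (100%) and 103 held Tyrobp UMIs (96.3%), the signaling adaptors of NK receptors. In Cd8-bearing cells these shares were 11.4% and 6.19%, in endothelial cells 34.5% and 5.77%, and in monocytes, which express both genes, 98.9% and 95.4%. The CD3 chain Cd3e, the T cell adaptor Themis and the T cell surface protein Cd5 were each found in 0 of 107 cells, which allows a share of cells with a UMI of up to 2.80% and does not limit the share of cells expressing the gene at a lower level, while Cd8-bearing cells held Cd3e in 88.0% and Themis in 86.3%. Cd3g was found in 22 NK receptor-bearing cells (20.6%) and Cd3d in 13.

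The TCR rule nevertheless counted 84 of these 107 cells as TCR-bearing. Their UMIs were of the beta constant genes, with Trbc1 in 72 cells (67.3%) and Trbc2 in 50 (46.7%), whereas Trac was found in 8 (7.48%) and Trdc in 11. In Cd8-bearing cells the order was different, with Trbc2 in 94.5%, Trac in 89.6% and Trbc1 in 41.8%. The gene segments Trav11 and Traj18, which make the invariant receptor of NKT cells, were at 0 in the NK receptor-bearing cells. This cannot decide whether NKT cells were among them. Trav11 was also at 0 in the 1519 Cd8-bearing and 376 Cd4-bearing cells, and UMIs of any alpha variable gene were found in 12.2% of NK/T cells. The factor of NKT cells, Zbtb16, was found in 14 of the NK receptor-bearing cells (13.1%), against 0.461% of Cd8-bearing and 0.532% of Cd4-bearing cells. It was also found in 30.02% of endothelial cells and 4.36% of monocytes. Presence of a beta constant UMI therefore did not separate cells with the T cell genes Cd3e and Themis from cells without them.

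The share of Trbc1 among all Trbc UMIs differed between the classes in every mouse. In NK receptor-bearing cells it was 100%, 52.1% and 64.7% in the controls and 47.1%, 57.4% and 66.7% in the stressed mice, where the value of control mouse 1 rests on 3 UMIs in 2 cells. In Cd8-bearing cells it was 22.0%, 23.9% and 22.5% in the controls and 31.0%, 33.1% and 15.6% in the stressed mice. The NK receptor-bearing cells were higher in 6 of 6 mice, by 39.9 percentage points on average (SD 22.5, range 16.0 to 78.0; two-sided exact permutation test of signs, p = 0.03125, the smallest that 6 mice allow). Without control mouse 1 the mean was 32.3 points (SD 14.1) and the exact p was 0.0625, the smallest that 5 mice allow. Cd4-bearing cells had 47.8%, 35.2% and 16.9% in the controls and 33.1%, 29.7% and 37.6% in the stressed mice, higher than Cd8-bearing cells in 4 of 6 mice (exact p = 0.219).

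**Figure D2:**
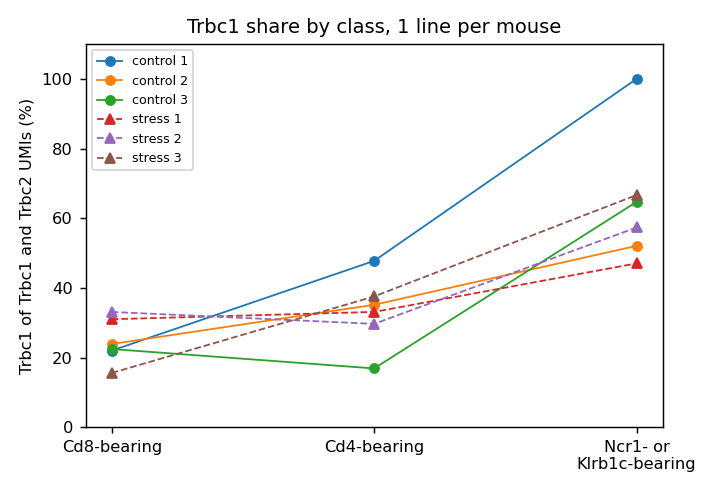
Trbc1 UMIs as a percentage of all Trbc1 and Trbc2 UMIs (vertical axis) in Cd8-bearing, Cd4-bearing and NK receptor-bearing cells, with 1 line per mouse. Every line ends higher in NK receptor-bearing cells (47.1% to 100%) than in Cd8-bearing cells (15.6% to 33.1%).

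Across all genes, NK receptor-bearing cells were set against Cd8-bearing cells in the same way, with the class-defining genes and the TCR constant genes left out of the calls. Of 5008 genes 396 passed (7.91%), 243 higher (4.85%) and 153 lower (3.06%), with a median log2 fold change of -0.08 over all genes. Control mouse 1 contributed 2 NK receptor-bearing cells, so its values are coarse. The p-values of this comparison rest almost wholly on a spread shared by all genes, not on that of each gene between mice.

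The adaptors and receptors of NK cells led the higher genes. Tyrobp was at 2.86, 12.3, 4.61, 2.22, 18.3 and 49.6 CPM in Cd8-bearing cells of control mice 1 to 3 and stress mice 1 to 3 and at 2161, 1482, 1142, 1220, 539 and 1129 CPM in NK receptor-bearing cells. The classes were far apart in every mouse, with a log2 fold change of 6.18 ± 0.29 (adjusted p = 2.41e-94, edgeR's quasi-likelihood test). Fcer1g was at 10.8 to 99.5 CPM against 1287 to 3674 CPM (5.68 ± 0.28, adjusted p = 4.16e-89, edgeR). Of 17 tested genes of the NK and innate lymphoid list, 12 were higher and 0 lower (median 1.72), among them Cd244a (2.51), Klre1 (1.92), Klrk1 (1.72) and the transcription factors Eomes (1.97 ± 0.28) and Tbx21 (1.05). Eomes UMIs were found in 52 of the 107 cells (48.6%), and its level was 111 to 294 CPM against 17.1 to 56.0 CPM, without overlap. Of 11 Ly49 receptors, Klra4, Klra7, Klra8 and Klra9 could be tested, and these 4 were higher. With few UMIs in Cd8-bearing cells, Klra7, Klra8 and Klra9 could pass the filter on low counts only through NK receptor-bearing cells. Their direction was thus set by the filter, and only the size of the ratios is described. Klra4 had a ratio of 14.3 and Klra7 one of 41.3 per UMI of the class. Cd8-bearing cells held only 14 UMIs of Klra8, all in stress mouse 2, and 6 of Klra9, with ratios of at least 155 and 154 at the lower end of the exact 95% counting interval. The genes of this family are near-identical copies, so the split among members is uncertain. The transcription factors Irf8 (2.83 ± 0.24) and Tcf7 (1.80), the latter a factor of naive and memory lymphocytes, were higher as well.

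Effector genes were divided. Gzma was at 324 to 1124 CPM in Cd8-bearing and 2779 to 14550 CPM in NK receptor-bearing cells (3.23 ± 0.26, adjusted p = 3.48e-32, edgeR), and Prf1 differed by 1.07 ± 0.24 (adjusted p = 0.000292, edgeR). Xcl1 was higher in 5 of 6 mice (2.25 ± 0.26), with control mouse 1 at 0. Gzmk, which marks effector memory CD8 T cells, was lower (-1.26). Gzmb (0.65, adjusted p = 0.0684, edgeR), Ccl5 (0.33), Nkg7 (-0.24), Ifng (-0.02) and Fasl (0.27) did not pass. Of the 11 cytotoxic granule genes tested, 5 were higher (Gzma, Prf1, Ctsw and the protease inhibitors Serpinb6b and Serpinb9), 1 was lower (Gzmk) and the median was 0.65.

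Receptors of activated and exhausted T cells were lower in NK receptor-bearing cells. Pdcd1 was at 294, 224, 361, 249, 235 and 337 CPM in Cd8-bearing cells and at 216, 0, 0, 0, 8.94 and 22.6 CPM in NK receptor-bearing cells of the same mice. All 6 mice had less in NK receptor-bearing cells, with control mouse 1 the nearest (-4.68 ± 0.46, adjusted p = 1.64e-21, edgeR). Ctla4 (-1.63 ± 0.28), Havcr2 (-1.52), Lag3 (-1.46), Tox (-1.12) and the costimulator Icos (-2.23) were lower, and the checkpoint list had 6 lower and 1 higher, Cd244a, of 12 tested (median -0.82). Of the genes of TCR signaling, 7 of 15 were lower and 1, the kinase Txk, higher (median -0.75). Lat, the scaffold of TCR signaling, was lower by -3.22. Themis, Cd3e, Cd6 and Cd5 had 0 of 622649 UMIs in NK receptor-bearing cells, at least 96.0-fold, 72.7-fold, 17.3-fold and 13.0-fold lower than in Cd8-bearing cells against a floor of 3 UMIs over the class. Cd3g was at 898 to 1295 CPM against 36.8 to 255 CPM (-2.73 ± 0.28).

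**Figure D3:**
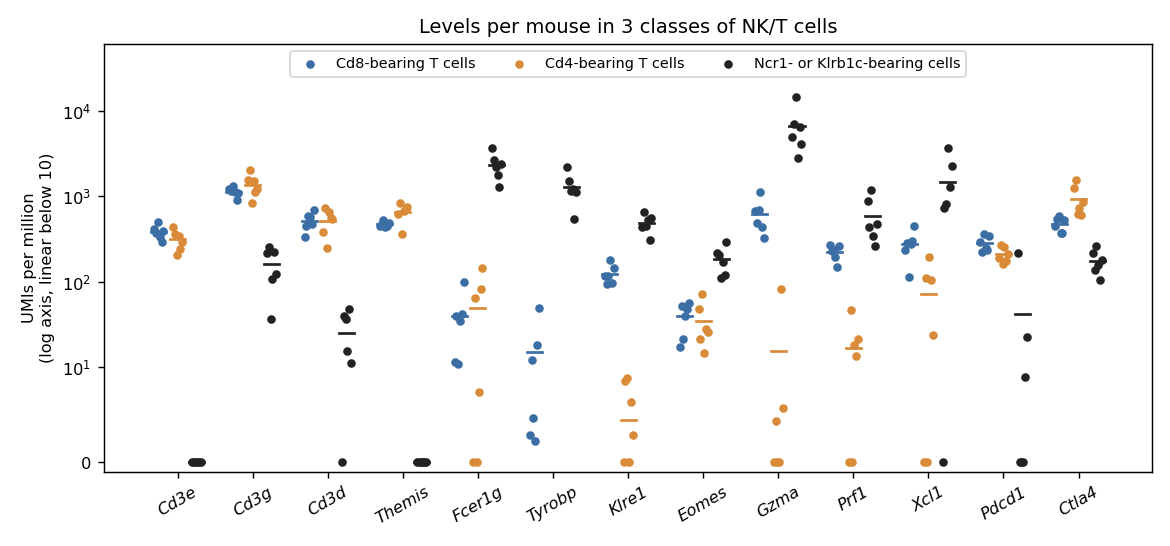
CPM per mouse (log axis) of 13 genes in Cd8-bearing, Cd4-bearing and NK receptor-bearing cells, 1 point per mouse and class. Fcer1g and Tyrobp lie above 500 CPM in every NK receptor-bearing sum and below 100 CPM in every Cd8-bearing sum, and Cd3e and Themis are at 0 in the NK receptor-bearing sums.

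The 93 TCR-lacking cells were mixed. CD3 UMIs without Ncr1 or Klrb1c were found in 41, NK receptor UMIs without CD3 in 19, both in 4 and neither in 29. Trdc was found in 6 and the basophil and mast cell genes Cpa3 or Mcpt8 in 2. They numbered 3, 33 and 2 in the controls and 8, 28 and 19 in the stressed mice. Their sums carried 4379 to 72784 UMIs per control mouse and 22749 to 149630 per stress mouse, so the values of control mice 1 and 3 rest on few molecules.

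TCR-bearing cells were compared with TCR-lacking cells of the same mouse, with the 3 constant genes left out of the calls. Of 4727 genes 126 passed (2.67%), 54 higher (1.14%) and 72 lower (1.52%) in TCR-bearing cells, and the median log2 fold change of all genes was 0.18. Cd3g was at 913, 508, 133, 659, 154 and 370 CPM in TCR-lacking and 1247, 1090, 1179, 1139, 874 and 1084 CPM in TCR-bearing cells of the same mice. TCR-bearing cells were higher in 6 of 6 mice, as 9.88% of all tested genes differed in 1 direction in every mouse (1.76 ± 0.34, adjusted p = 6.72e-05, edgeR's quasi-likelihood test). Cd3d (1.81 ± 0.39), Cd3e (1.46), Cd8a (1.94) and Lat (1.48) were higher too. Proliferation genes were higher in 7 of 14 cases and lower in 0 (median 1.25), among them the topoisomerase Top2a (1.65), Ube2c (1.81) and Stmn1 (1.58). TCR-bearing cells were deeper, at a median of 4495 against 2180 UMIs, and more of them held tumor gene UMIs (20.2% against 8.60%) or were called doublets (8.97% against 5.38%), and the part of these in the proliferation values was not tested. Ccl1, a chemokine ligand of Ccr8, passed as well and was at 32.7 to 69.9 CPM in TCR-bearing cells. TCR-lacking cells held 2 UMIs of it in control mouse 2 and 0 in the other 5 mice, against 894 in TCR-bearing cells, a ratio of 7.49 per UMI of the class with an exact 95% counting interval of 2.07 to 61.9.

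Fcer1g was at 0, 1676, 2258, 967, 728 and 802 CPM in TCR-lacking and 66.0, 101, 64.3, 80.9, 115 and 154 CPM in TCR-bearing cells. In 5 mice the TCR-lacking cells were far higher, and in control mouse 1, with 3 such cells, they were at 0 (-3.08 ± 0.34, adjusted p = 7.92e-16, edgeR). Tyrobp (-3.32), Klra4 (-2.88), Irf8 (-1.93), Xcl1 (-1.73), Eomes (-1.66) and Gzma (-1.49) were lower in TCR-bearing cells, as was Il2ra (-1.61). Among called genes that were lower in all 6 mice, Napsa had the most negative value (-2.03). Fcer1g and Tyrobp were also found in 98.9% and 95.4% of monocytes, and the part of other cell types in these values was not tested. Themis (0.68), Nkg7 (0.90, adjusted p = 0.101, edgeR), Gzmb (0.11) and Ccl5 (-0.01) did not pass. Leaving out control mouse 2, stress mouse 1 or stress mouse 3 changed the count of 126 genes to 27, 71 or 45, and it was 72 with only the cells of at least 2000 UMIs.

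Depth and transcripts of other cells varied among NK/T cells. Above 15000 UMIs lay 247 cells, of which 83.4% held UMIs of the tumor genes Krt18, Epcam, Cldn6 or Afp, 72.9% were called doublets (2 cells in 1 droplet) by Scrublet and 87.4% were cycling. A cell was called cycling when it held UMIs of at least 2 of Mki67, Top2a, Birc5 and Ube2c. Among the 2243 cells with at most 15000 UMIs these shares were 12.8%, 1.78% and 22.6%. The cycling share rose with depth also where doublets were rare, from 1.97% below 2000 UMIs (0.985% doublets) to 40.8% between 5000 and 10000 UMIs (2.95% doublets). In all, 220 NK/T cells (8.84%) were called doublets.

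Xist, the transcript that silences one X chromosome in female cells, was higher in TCR-bearing cells (1.85 ± 0.39), with a value of -0.12 once cells with tumor gene UMIs were left out. It was at 1717 CPM in tumor cells, 1080 CPM in the 492 NK/T cells with tumor gene UMIs and 59.6 CPM in the 1998 without. The Y-linked gene Uty was at 0.515, 49.9 and 146 CPM in the same 3 sets of cells.

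**Figure D4:**
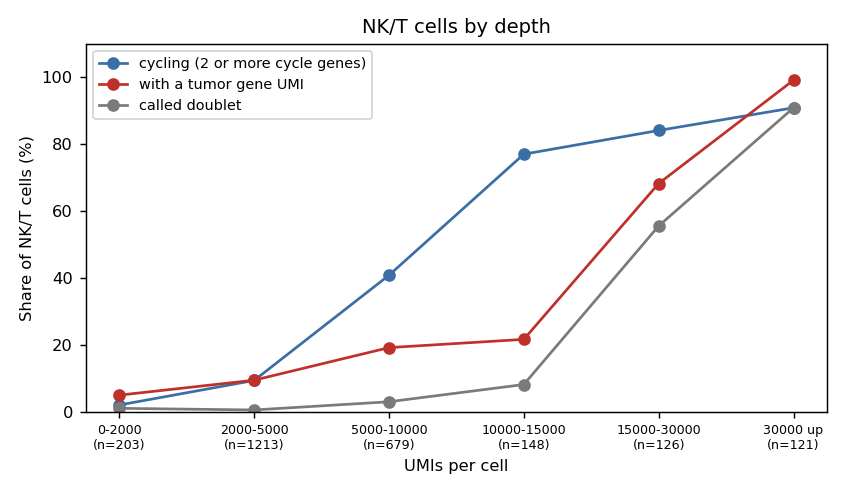
Percentage of NK/T cells with tumor gene UMIs, called doublets and cycling (vertical axis) by bin of UMIs per cell (horizontal axis). Doublets stay at or below 8.11% up to 15000 UMIs and reach 55.6% and 90.9% in the 2 highest bins, while cycling cells reach 77.0% already between 10000 and 15000 UMIs.

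Cycling cells made up 16.1%, 22.1% and 21.4% of NK/T cells in the controls and 26.0%, 38.8% and 28.6% in the stressed mice. No stressed mouse lay below a control mouse, with means of 19.9% ± 3.27 and 31.1% ± 6.77 (SD, n = 3 mice each) and a difference of 11.3 percentage points (two-sided exact permutation test, p = 0.10, the smallest possible; adjusted over the 7 shares 0.70). The groups also did not overlap without called doublets (13.3 points), without cells with tumor gene UMIs (13.6 points), with at most 15000 UMIs per cell (11.8 points) and with cells thinned to 1000 UMIs (6.19 points). NK/T cells of stress mice were deeper, and the part of depth in the unthinned difference was not tested. Of the Cd8-bearing cells alone, 23.6%, 26.7% and 23.1% were cycling in the controls and 31.1%, 47.8% and 36.1% in the stressed mice. After thinning, the groups overlapped, at 0%, 8.73% and 6.52% against 8.06%, 23.2% and 17.8% (exact permutation test, p = 0.20). The cycling shares of Cd4-bearing cells overlapped before thinning, at 11.1%, 11.9% and 21.4% against 12.5%, 30.3% and 20% (exact permutation test, p = 0.50). After thinning they were at 0%, 0% and 0% of 8, 23 and 1 cells against 6.67%, 4.55% and 4% of 15, 44 and 25 cells. Beta variable gene UMIs were found in 5.38%, 3.41% and 11.9% of NK/T cells of control mice and 17.8%, 15.1% and 19.8% of those of stress mice, without overlap, and after thinning in 1.09%, 1.35% and 0.794% against 2.25%, 3.61% and 3.53%. Alpha variable gene UMIs overlapped between the groups, at 4.301%, 7.57% and 12.7% against 10.0%, 13.1% and 19.5% (exact permutation test, p = 0.20), and after thinning their means were 2.85% and 3.19% (p = 0.70).

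NK/T cells of stress and control mice were compared gene by gene. UMIs of all NK/T cells were summed per mouse, scaled by TMM (a normalization that assumes most genes do not change) and compared in edgeR's quasi-likelihood test. Of 11196 genes, 96 passed an adjusted p of 0.05 (0.857%), 60 higher (0.536%) and 36 lower (0.322%) in the stressed mice, and 1469 had an unadjusted p under 0.05. The count depended on the cells and mice used. Without called doublets 445 of 9590 genes passed (4.64%), 186 higher (1.94%) and 259 lower (2.7%), without cells with tumor gene UMIs 347 of 9190 (3.78%, 1.76% higher and 2.01% lower), in cells with at most 15000 UMIs 392 of 9495 (4.13%, 1.9% higher and 2.23% lower), and without control mouse 1 only 38. The groups did not overlap in 20.1% of the genes tested. The median log2 fold change of all genes was 0.00 at 2 decimals. In bulk sums of this kind, fewer cells of a type and less RNA per cell cannot be told apart.

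Some interferon-stimulated genes rose. Isg15, a ubiquitin-like protein induced by interferon, was at 14.3, 25.5 and 26.6 CPM in the controls and 110, 96.3 and 69.5 CPM in the stressed mice. All stress mice were higher, with a log2 fold change of 2.03 ± 0.25 (adjusted p = 0.0018, edgeR), and the call held under every alternative tried. Ifit1, which binds viral RNA, rose from 4.09, 4.86 and 1.16 CPM to 26.7, 36.1 and 9.69 CPM (2.69 ± 0.54, adjusted p = 0.0375, edgeR), and the call was lost without control mouse 1, 2 or 3, without stress mouse 1 or 2, and without cells with tumor gene UMIs (2.26 to 3.46 over the mice left out, adjusted p up to 0.186). The list of 14 interferon-stimulated genes had these 2 calls and 0 lower (median 0.49), 6 genes at an unadjusted p under 0.05 and 1 call by DESeq2, Isg15. Its summed level was 496, 750 and 676 CPM in the controls and 819, 848 and 942 CPM in the stressed mice, without overlap. Further members did not pass, with Bst2 at 0.15, Irf7 at -0.07, Ifi47 at -0.69 and Ifit3 at -0.97. Ifi47 was called lower without called doublets, without cells with tumor gene UMIs and in cells with at most 15000 UMIs. Cxcl10, an interferon-induced chemokine picked out after its values were seen, rose from 16.3, 49.1 and 10.4 CPM to 116, 116 and 87.9 CPM (1.83 ± 0.34, adjusted p = 0.0254, edgeR), a call lost without control mouse 1, control mouse 3 or stress mouse 1 (1.53 to 3.13 over the mice left out, adjusted p up to 0.118). Cxcl10 was at 498 CPM in monocytes and 387 CPM in endothelial cells against 87.6 CPM in NK/T cells, and Isg15 at 471 CPM in inflammatory myeloid cells and 222 CPM in monocytes against 70.7 CPM. Summed monocyte markers were at 12.7 to 35.7 CPM in the controls and 28.7 to 98.8 CPM in the stressed mice, and the part of RNA from those cells was not tested.

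The promoters of these 3 genes are shown because interferon acts through a known DNA element. Each run is the 250 bases before the RefSeq start in GRCm38.p6, written 5′ to 3′ on the strand of the gene, with matches to GAAA, any 2 bases and GAAA on either strand in capitals. Isg15 lies on the minus strand (chr4:156200819-156201068), Ifit1 on the plus strand (chr19:34640639-34640888) and Cxcl10 on the minus strand (chr5:92348890-92349139):
Isg15: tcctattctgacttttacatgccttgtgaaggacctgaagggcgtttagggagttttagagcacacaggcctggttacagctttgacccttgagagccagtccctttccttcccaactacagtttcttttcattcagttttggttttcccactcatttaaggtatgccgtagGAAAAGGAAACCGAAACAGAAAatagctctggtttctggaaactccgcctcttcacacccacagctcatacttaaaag
Ifit1: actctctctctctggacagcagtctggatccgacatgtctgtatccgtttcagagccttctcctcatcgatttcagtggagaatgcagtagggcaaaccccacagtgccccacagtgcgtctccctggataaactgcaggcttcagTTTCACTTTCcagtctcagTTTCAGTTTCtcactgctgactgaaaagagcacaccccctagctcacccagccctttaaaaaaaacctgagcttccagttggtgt
Cxcl10: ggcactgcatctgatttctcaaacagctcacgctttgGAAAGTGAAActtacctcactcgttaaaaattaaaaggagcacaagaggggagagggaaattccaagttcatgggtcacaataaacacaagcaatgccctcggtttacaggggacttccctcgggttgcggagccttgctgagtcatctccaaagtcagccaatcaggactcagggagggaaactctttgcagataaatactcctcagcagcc
Isg15 held 3 overlapping matches, Ifit1 held 2 and Cxcl10 held 1. Of 32851 promoters of this length 978 held a match (2.98%), and of 8702 tested genes with a promoter 295 did (3.39%). Of the 9 interferon list genes with a promoter in the table, 7 held one (Bst2, Gbp2, Ifit1, Ifit3, Igtp, Irgm1 and Isg15), of which Isg15 and Ifit1 passed the test of stress.

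Of 14 genes known to respond to activation and to tissue dissociation, 3 were lower, the immediate early genes Fos, Ier2 and Egr1, and 3 higher, the chaperone genes Hspa1b, Hspa1a and Hsp90aa1, while 8 did not pass (median -0.26). Jun and Junb, at -0.62 and -0.64 here, passed downward without called doublets (-0.59 and -0.85, beside 2.7% of all genes), without cells with tumor gene UMIs and in cells with at most 15000 UMIs, and DESeq2 called Junb with all cells. Fos was at 748, 350 and 461 CPM in the controls and 181, 135 and 149 CPM in the stressed mice, with every stress mouse lower (-1.65 ± 0.25, adjusted p = 0.0082, edgeR). Ier2 fell from 515, 454 and 382 CPM to 208, 213 and 196 CPM (-1.05 ± 0.15, adjusted p = 0.0049, edgeR), and both calls held under every alternative. Fos UMIs were found in 38.7%, 37.2% and 41.3% of NK/T cells in the controls and 32.3%, 26.2% and 30.9% in the stressed mice. Fos was at 831 CPM in monocytes and 784 CPM in endothelial cells against 222 CPM in NK/T cells, and the part of free RNA in its fall was not tested. Egr1 fell from 562, 421 and 479 CPM to 149, 181 and 186 CPM (-1.42 ± 0.16, adjusted p = 0.00086, edgeR), but its value was -0.57 without called doublets, -0.64 without cells with tumor gene UMIs and -0.50 in cells with at most 15000 UMIs, none of which passed. The chaperone Hspa1b rose from 100.1, 88.2 and 56.7 CPM to 222, 241 and 225 CPM (1.58, adjusted p = 0.0011, edgeR), a call that held throughout. Hspa1a (1.89) and Hsp90aa1 (0.91) rose as well, and the first lost its call without control mouse 2 or 3 (adjusted p up to 0.0936) and the second without any of 5 mice (up to 0.195).

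Of the T cell receptor signaling list, 2 of 15 genes fell and 0 rose (median -0.11). Prkcq, the kinase that links the receptor to NF-kappaB, went from 75.6, 79.4 and 97.3 CPM to 43.6, 46.5 and 48.2 CPM (-0.79, adjusted p = 0.048, edgeR). The adaptor Skap1 went from 409, 524 and 498 CPM to 235, 303 and 278 CPM (-0.74, adjusted p = 0.037, edgeR). The groups did not overlap for either, but the call of Prkcq was lost whichever mouse was left out (adjusted p between 0.0658 and 0.226) and that of Skap1 in 5 of 6 such cases (up to 0.202). Without called doublets 5 of the 15 fell, where 2.7% of all genes fell, with Lck (-0.50) and Cd5 among them (list median -0.34 against 0.00 for all genes). The CD3 and constant genes themselves had 0 calls of 7 in edgeR and in DESeq2 and 1 at an unadjusted p under 0.05, with Trac at -0.32 and Trbc2 at 0.12. After thinning to 1000 UMIs, Trac was found in 51.1%, 40.5% and 43.7% of NK/T cells in the controls. In the stressed mice it was 33.3%, 32.8% and 35.5%, without overlap (exact permutation test, p = 0.10), whereas the unthinned shares overlapped (p = 0.40).

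Cytotoxic, checkpoint and glucocorticoid genes gave 0 calls in edgeR's test of all NK/T cells. At an unadjusted p under 0.05 they held 3, 1 and 5 genes, and DESeq2 called Gzmk among the first, 0 of the second and Cxcr4 and Tsc22d3 of the third. Gzmb was at 376, 906 and 688 CPM in the controls and 623, 626 and 734 CPM in the stressed mice, fully overlapping (0.07 ± 0.24, adjusted p = 0.95, edgeR). Gzma (-0.05), Prf1 (-0.31), Ifng (0.07) and Fasl (-0.12) likewise did not pass, and the 14 cytotoxic genes tested had a median of 0.09. Without called doublets 3 of 13 fell, beside 2.7% of all genes, Prf1 (-0.59, adjusted p = 0.019), Gzmk (-0.93, adjusted p = 0.0025) and Ctsw, in edgeR's test. Pdcd1 was at 286, 204 and 317 CPM against 229, 199 and 298 CPM (-0.06 ± 0.21, adjusted p = 0.95, edgeR), and Ctla4 (-0.17), Lag3 (-0.01), Havcr2 (-0.08), Tigit (0.23) and Tox (-0.36) did not pass, with a list median of -0.06 over 13 genes.

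Genes of the stress hormones gave no call in edgeR with all NK/T cells, and without called doublets 1 of the 11 glucocorticoid response genes passed upward and 3 downward, beside 1.94% and 2.7% of all genes. The glucocorticoid receptor Nr3c1 was at 290, 244 and 294 CPM in the controls and 274, 276 and 307 CPM in the stressed mice (0.13 ± 0.15, adjusted p = 0.77, edgeR), and the 11 response genes had a median of -0.14 (-0.41 over 10 genes without cells with tumor gene UMIs). Tsc22d3, which encodes the glucocorticoid-induced leucine zipper, was at 247, 131 and 236 CPM against 105, 70.5 and 93.3 CPM. The groups did not overlap (-1.08 ± 0.26, adjusted p = 0.081, edgeR), and without called doublets it passed (-1.10, adjusted p = 0.0025, edgeR), as did Dusp1 (-0.93) and Il7r downward and Cxcr4 upward. Fkbp5 did not pass (-0.74, adjusted p = 0.33, edgeR). The 7 adrenergic genes tested had 0 calls in edgeR and in DESeq2, with 2 at an unadjusted p under 0.05 (median 0.05). Arrb2, which encodes a beta-arrestin, passed downward without called doublets (-0.64, adjusted p = 0.033, edgeR), without cells with tumor gene UMIs and in cells with at most 15000 UMIs, and the list median was then -0.20, -0.21 and -0.17.

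Trafficking and lineage genes gave 1 call. Ccr7, which guides lymphocytes to lymph nodes, rose from 32.7, 26.0 and 30.1 CPM to 122, 57.5 and 121 CPM (1.90 ± 0.31, adjusted p = 0.013, edgeR), and the call was lost without any 1 of the control mice (adjusted p up to 0.0743). It was at 380 CPM in dendritic cells against 69.4 CPM in NK/T cells. Summed dendritic markers were at 19.7 to 73.1 CPM in the controls and 43.1 to 210 CPM in the stressed mice, with 3 of 3 tested at an unadjusted p under 0.05 and 0 called, and their part in the Ccr7 value was not tested. The neighbouring values Xcl1 (0.99, adjusted p = 0.069), Cxcr4 (0.87) and Cxcr3 (-0.75) did not pass in edgeR's test, while without called doublets Xcl1 rose (0.85, adjusted p = 0.047, edgeR) and Cxcr3 fell (-1.07). The CD8 list, the CD4 helper list, the regulatory list and the NK and innate lymphoid list each had 0 calls in edgeR, with 2, 3, 3 and 3 genes at an unadjusted p under 0.05, and DESeq2 called Gzmk, Ikzf2, Tnfrsf4 and Xcl1 among them. Cd8a was at 223, 216 and 257 CPM in the controls and 173, 143 and 221 CPM in the stressed mice (-0.30), and without called doublets its value of -0.52 passed (adjusted p = 0.030, edgeR). Gm44174, the lncRNA beside Cd8a, fell from 69.5, 65.6 and 82.2 CPM to 29.2, 32.7 and 41.7 CPM (-0.97, adjusted p = 0.032, edgeR). Its call was not followed when a mouse was left out.

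Many genes of the histone families H1f, H2ac, H2bc, H3c and H4c did not pass, but those that did were higher. Of 47 tested genes of these families, grouped after their values were seen, 17 were higher and 0 lower, 46 had a positive value and the median was 1.43. Histone genes with other symbols were not in the group. H1f5 was at 73.6, 116 and 107 CPM in the controls and 313, 420 and 401 CPM in the stressed mice, with no overlap (1.97 ± 0.18, adjusted p = 0.0001, edgeR). H1f4 (2.38), H4c4 (2.22) and H1f1 (3.38) were among the others. The call of H1f1 held whichever mouse was left out (edgeR, adjusted p up to 0.0171), and those of H1f5, H1f4 and H4c4 were not followed in this way. The 14 proliferation genes had 0 calls in edgeR, 3 in DESeq2 (Pcna, Mki67 and Hmgb2), 7 at an unadjusted p under 0.05 and a median of 0.54. Their summed level overlapped between the groups, at 2410.82 to 4025.5 CPM against 3217.14 to 4952.59 CPM (exact permutation test, p = 0.20). Mki67, at 20.4, 70.4 and 54.4 CPM against 75.4, 134 and 138 CPM, did not overlap between the groups but missed the threshold (1.17 ± 0.29, adjusted p = 0.092, edgeR). Without called doublets it passed (1.16, adjusted p = 0.032, edgeR), and 4 of the 14 genes were higher, Mcm6, Pcna, Mki67 and Hmgb2, beside 1.94% of all genes.

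A list of transcripts was chosen because they shift in many cell types of these same libraries, so their shift here is no independent result. All 6 of that list were higher, from Cdk8 (2.43) to Gm19951 (4.16). Of 13 mitochondrial transcripts 4 were higher (median 0.53), led by mt-Atp8 at 69.5, 50.5 and 51.0 CPM against 115, 145 and 164 CPM (1.45, adjusted p = 0.0019, edgeR). The summed level of the 13 overlapped, at 24467.8 to 30653.5 CPM in the controls and 27608.1 to 38236.6 CPM in the stressed mice (exact permutation test, p = 0.40). The calls of mt-Nd2 and mt-Nd5 were lost without some of the mice (edgeR, adjusted p up to 0.0979 and 0.0997). Without called doublets 8 of the 13 were higher, beside 1.94% of all genes. Without cells with tumor gene UMIs it was 6 (1.76% of all genes), and in cells with at most 15000 UMIs also 6 (1.9%). The other genes with the greatest values among those that did not overlap were Slc7a2 (3.54), Plagl1 (2.98) and Tas1r1 (2.90) upward, all below 30 CPM, and Dapk1 (-1.85), Ryr3 (-1.73), Pou2f3 (-1.70), Gm46563 (-1.50), Nudcd3 (-1.44) and Gm53028 (-1.41) downward. The call of Tas1r1 was lost whichever mouse was left out (adjusted p from 0.0555 to 0.173), and that of Slc7a2, whose value ran from 3.31 to 7.18, in all but 1 case where it could be tested (adjusted p up to 0.158). Plagl1 (up to 0.0935), Ryr3 (up to 0.0672), Pou2f3 (up to 0.0974), Gm46563 (up to 0.0922) and Gm53028 (up to 0.0828) lost theirs without some of the mice. Also called, and picked out after their values were seen, were the regulator Zeb1 (1.27 ± 0.17), the small protein Plac8 (1.27 ± 0.19), which was at 2545 CPM in monocytes against 636 CPM in NK/T cells, the cytokine signaling genes Stat5a (1.15), Il4ra (0.96) and Jak2 (0.79) and the oxygen-sensing factor Hif1a (0.80) upward, and the cyclin Ccnd3 (-1.28) and the factor Foxo3 (-0.85) downward. The calls from Zeb1 to Foxo3 were not followed when a mouse was left out, so their dependence on single mice is not known. Eno1b and Gapdhrt were lower by -1.60 and -1.46, but both are copies of more abundant glycolytic genes and their counts are uncertain. Both calls were lost without some of the mice (edgeR, adjusted p up to 0.0743 for Eno1b and 0.158 for Gapdhrt).

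**Figure D5:**
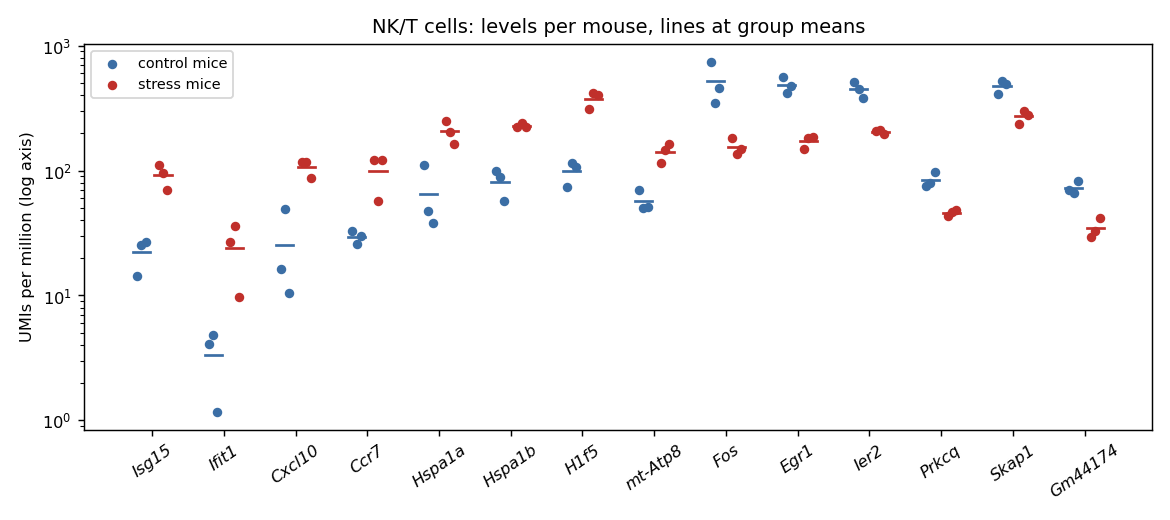
CPM per mouse (log axis) in NK/T cells of control and stress mice for genes named in the text, 1 point per mouse. Isg15, Hspa1b and H1f5 lie higher and Fos and Ier2 lower in all 3 stress mice than in any control mouse.

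Transcripts of other cell types were compared between the groups. Summed hepatocyte markers (8 of 9 with a UMI, Mup20 at 0) were at 3.47 to 6.13 CPM in the controls and 8.42 to 16.4 CPM in the stressed mice, without overlap. The sums of the other lists overlapped, with tumor cell markers at 264 to 360 CPM against 114 to 340 CPM, and those of monocyte and dendritic markers as given above. Their part in the genes above was not tested beyond the sums without called doublets or tumor gene cells, in which 91 and 86 of the 96 genes were called.

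Split by TCR class, TCR-bearing cells gave 92 genes of 11175 (0.823%), 57 higher (0.51%) and 35 lower (0.313%) in the stressed mice, and the groups did not overlap in 20.2% of the genes tested. The 93 TCR-lacking cells allowed 537 genes to be tested, and 8 passed (1.49%), 6 higher (1.12%) and 2 lower (0.372%), with 36 at an unadjusted p under 0.05. Cmss1 (3.90), Lars2 (3.46), Gphn (2.68) and Camk1d (2.56), from the series-wide shifted list, were higher, together with mt-Cytb (1.56) and Mt1 (3.28), which encodes a metallothionein, a metal-binding protein. The immediate early gene Junb (-1.37) and the antiproliferative Btg2 (-2.04) were lower. Without control mouse 2 edgeR made 0 calls, with 33 genes at an unadjusted p under 0.05.

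The difference of the stress effect between the TCR classes was tested as an interaction, and 1 of 5795 genes passed (0.0173%), with 286 at an unadjusted p under 0.05 and 1 called by DESeq2. Mt1 was at 457, 206 and 133 CPM in TCR-lacking cells of control mice and 3209, 2232 and 555 CPM in those of stress mice. In TCR-bearing cells it was at 4206, 1805 and 1416 CPM against 1994, 1821 and 1034 CPM. It was higher in the stressed mice in the first class, without overlap, and overlapped between the groups in the second (interaction -3.72 ± 0.77, adjusted p = 0.0087, edgeR's quasi-likelihood test). The call was lost without called doublets, without cells with tumor gene UMIs, in cells with at most 15000 UMIs or at least 2000 UMIs, and without stress mouse 2 or 3, where edgeR called 0 genes and 96 to 323 had an unadjusted p under 0.05. It was also lost without control mouse 1 or 3 or stress mouse 1, where 1, 3 and 4 other genes passed.

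The stress effect in NK/T cells was also set against that in endothelial cells and in monocytes of the same mice. Against endothelial cells 0 of 15008 genes passed in edgeR's interaction test (0%), with 1454 at an unadjusted p under 0.05 and 46 called by DESeq2, and without control mouse 2 edgeR called 12. Against monocytes 2 of 12726 passed (0.0157%), 1 in each direction (0.00786% each), with 639 at an unadjusted p under 0.05. Gm19951, an unnamed transcript, was at 6.13, 7.29 and 16.2 CPM in NK/T cells of control mice and 124, 160 and 176 CPM in the stressed mice, and at 42.3, 49.9 and 74.2 CPM against 157, 191 and 172 CPM in monocytes. It was higher in the stressed mice in both classes, with the greater fold in NK/T cells (interaction 2.44). The epithelial keratin Krt8, a tumor cell gene, was at 4.09, 2.67 and 11.6 CPM against 0, 0.143 and 0.242 CPM in NK/T cells and at 1.60, 1.23 and 1.73 CPM against 1.37, 19.8 and 15.9 CPM in monocytes. Its NK/T values in the stressed mice are 0, 1 and 1 UMIs, so no fold is given. Apart from Gm19951, no gene described above as changed in NK/T cells, Isg15, Fos and Ier2 included, passed either test of the difference, which does not show that the effects were alike.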

How the data were processed

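The authors deposited 1 matrix of raw UMI counts per library, made with Cell Ranger per the file headers (9.0.0 for control, 7.1.0 for stress libraries), and a table with the mouse, cluster and cell type of each cell. The submitters' processing notes name mm10, and neither the gene annotation nor the treatment of introns is given in the sources used here. The study's methods state Scrublet, at most 20% mitochondrial UMIs, at least 200 genes, analysis in Seurat and integration of the libraries by Harmony. Of the 34099 feature identifiers, 32109 were found in GENCODE M21 (GRCm38). Without strand-specific counting stated, overlapping genes cannot be told apart.

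UMIs were summed over the NK/T cells, or a class of them, per mouse, giving 489460, 4116508 and 863457 UMIs for the control and 1950180, 7010268 and 4127527 for the stress mice. Sums were tested with edgeR 4.0.16 under R 4.3.3 (filterByExpr, TMM, quasi-likelihood test, Benjamini-Hochberg adjustment, threshold 0.05). The standard error is the log2 fold change divided by the square root of the F statistic. Comparisons of classes had the mouse as a block. Shares were compared by two-sided exact permutation over mice, where 3 against 3 cannot go below 0.10. Intervals and floors cover counting error only. Scrublet as in scanpy 1.11.5 was run per library, and called doublets were kept except where stated. Thinning drew 1000 UMIs per cell without replacement. Other tools were Python 3.11.15, numpy 2.4.6, scipy 1.17.1, pandas 2.3.3 and matplotlib 3.10.9.

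The same edgeR fit was tested on simulated counts of 10966 genes for NK/T cells of stress against control mice. It recovered 134 of 190 changed genes (70.5%), 89 of 92 at a log2 change of 2 and 45 of 98 at 1, with 8 false calls.

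The members and gene lists were chosen with earlier results of these data known. Named genes are list members and, for the test of stress and of TCR classes, the 10 highest and 10 lowest changes among called genes whose groups do not overlap or that moved one way in all 6 mice. Genes named otherwise were chosen after their values were seen. The comparisons of Cd4-bearing and NK receptor-bearing with Cd8-bearing cells, of NK/T cells with endothelial cells and monocytes and of the Trbc1 share, and the alternatives without tumor gene cells, with at most 15000 UMIs per cell and with equal UMIs per mouse, were chosen after seeing the data. Alternatives were DESeq2 1.42.0, RLE normalization, no filter, a replicate block, leaving out each mouse, leaving out called doublets and other TCR rules.

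The replicate numbers of control and stress mice were checked for pairing. Deviations from the group means correlated at 0.151, 0.223 and 0.0826 for mice with the same number, so not every pair was above 0.1 and the numbers were not taken to pair the mice. The study gives 3 mice per group, and the exact permutation p-values compare their libraries directly. The p-values of edgeR rest on a spread between libraries estimated partly per gene and partly over all genes. In the comparisons of NK receptor-bearing with Cd8-bearing cells and of TCR classes, interaction included, the shared part had nearly all the weight. Those p-values do not measure the spread of a single gene between mice. Results on a few genes are not reported here.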

Additional observations from a re-analysis of the deposited data

Results flagged for a closer look

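Mt1, a metallothionein gene, differed in its response to stress between TCR-bearing and TCR-lacking NK/T cells, with an interaction of -3.72 on the log2 scale (edgeR's quasi-likelihood test, Benjamini-Hochberg adjusted p = 0.0087). It rests on 93 TCR-lacking cells, of which control mice 1 and 3 gave 3 and 2. The call was lost whichever mouse was left out except control mouse 2. Gm19951 differed in its response between NK/T cells and monocytes by 2.44, and Krt8, a keratin of tumor cells, by a fitted -8.18. Krt8 had 0, 1 and 1 UMIs in NK/T cells of the stress mice, so this value depends on the model's handling of zeros and is no bound. The call of Gm19951 was lost without control mouse 2. Outside the annotation, 117 of 2580 barcodes held a UMI of Trac, Trbc1 or Trbc2, 2, 13 and 4 in the control and 14, 52 and 32 in the stress libraries. Of these, 43 also held a CD3 UMI. They were used in no comparison.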

How the results depend on the processing

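The number of genes called between stress and control mice varied with the cells and the tool. In all NK/T cells it was 96, and 162 with DESeq2, 479 with no filter on low counts, 445 without called doublets, 347 without cells with tumor gene UMIs, 392 with at most 15000 UMIs per cell and 38 to 125 when a mouse was left out (control mouse 1 gave 38, control mouse 3 gave 40 and stress mouse 1 gave 59). In TCR-bearing cells, with 92 genes, these counts were 163, 485, 441, 336, 396 and 35 to 134. In TCR-lacking cells, with 8 genes, no filter gave 2, leaving out doublets 4, leaving out tumor gene cells 4, at most 15000 UMIs 4, a rule by Trac alone 38, at least 2000 UMIs 5 and leaving out a mouse 0 to 10. The replicate number of the mice, entered as a replicate block, gave 229, 282 and 5 genes for these 3 comparisons. By the rule of the check the numbers were not taken to pair the mice, and control mouse 3 correlated best with stress mouse 1, but a pairing is not excluded.

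TCR-bearing against TCR-lacking cells gave 126 genes, 375 with no filter, 210 without doublets, 279 by Trac alone, 72 with at least 2000 UMIs and 27 to 177 leaving out a mouse. The interaction of TCR class and stress gave 1 gene, 5 with no filter, 0 without doublets, 0 without tumor gene cells, 0 with at most 15000 UMIs, 60 by Trac alone, 0 with at least 2000 UMIs and 0 to 4 leaving out a mouse. Cd4-bearing against Cd8-bearing cells gave 704, 1081 with no filter and 447 with no replicate block (mouse). NK receptor-bearing against Cd8-bearing cells gave 396, 628 with no filter and 263 (without control mouse 2) to 422 leaving out a mouse. The difference from endothelial cells gave 0 genes, 46 with DESeq2, 347 with no filter and 0 to 12 leaving out a mouse, and that from monocytes gave 2, 4, 172 and 2 to 4. The cause of these differences was not tested.

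Some differences in shares, given as stress minus control in percentage points, changed sign or went to 0. The TCR-bearing share (-0.134) was 0.259 without tumor gene cells, 0.162 with any TCR gene, 1.5 with at least 2 UMIs and -0.964 to 0.691 leaving out a mouse. The share with NK receptors among TCR-lacking cells (-14.8) was 3.30 after thinning and -35.5 to 14.5 leaving out a mouse. The share with neither coreceptor (0.905) ranged from -0.828 to 3.08 and the Foxp3-bearing share (-0.0218) from -1.14 to 0.612 leaving out a mouse, and the share with both coreceptors (0.386) was 0 after thinning. Xist in TCR-bearing against TCR-lacking cells (1.85) was -0.12 without tumor gene cells. Among the genes called between stress and control in NK/T cells, 34 were followed through the alternatives: called list members, the greatest changes and Cxcl10. Of these 34, 15 passed under every alternative, and none changed sign. Other genes named as called, among them H1f5, Gm44174, Zeb1 and Plac8, were not followed when a mouse was left out. For TCR-bearing against TCR-lacking cells 6 of 45 passed under every alternative, and for stress in TCR-lacking cells 0 of 8. Depth and the number of cells, 93 to 814 NK/T cells per mouse and 3 mice per group, limit every comparison, and TCR-lacking cells allowed 537 genes to be tested.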

Other observations

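Genes of tissue residency varied in how many NK/T cells held them. Cxcr6, a chemokine receptor of liver-resident lymphocytes, was found in 55.0% of the cells at 199 CPM against at most 12.6 CPM in any other cell type. Rgs1 was found in 72.8% and Cd69 in 37.2%. In endothelial cells these 3 genes were found in 0.682%, 2.76% and 2.06%, and in monocytes in 1.33%, 36.2% and 14.8%. The integrin Itgae, which binds epithelial cadherin, was found in 3.86% against 1.06% of endothelial cells, and Zfp683, a residency factor, in 0.241%. The egress receptor S1pr1 was found in 10.2%, against 62.2% of endothelial cells and 2.08% of monocytes, and S1pr5 in 0.281% against 0.0525% of endothelial cells and 0.304% of monocytes. These shares are a description with no test.

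Gamma chain transcripts were found beside those of the alpha and beta chains. Trgc2 was found in 20.4% of Cd8-bearing cells, 0.532% of Cd4-bearing cells and 0.131% of endothelial cells. Its level was 20, 39.2, 72.2, 35.6, 51.4 and 50.9 CPM in the Cd8-bearing cells of control mice 1 to 3 and stress mice 1 to 3, and it was at 0 in the Cd4-bearing cells of 5 mice and at 3.60 CPM in those of stress mouse 2. Cd8-bearing cells held 598 UMIs and Cd4-bearing cells 4, a ratio of 29.6 per UMI of the class with an exact 95% counting interval of 11.5 to 109. The gamma constant genes resemble each other, so the share of each is uncertain. Trgv2, a gamma variable segment, was found in 14.1% of Cd8-bearing and 0.798% of Cd4-bearing cells. Across all NK/T cells Trgv2 was at 2.04, 7.77 and 13.9 CPM in the control and 20.5, 21.3 and 22.5 CPM in the stress mice, without overlap, and did not pass the test (1.43 ± 0.35, adjusted p = 0.095, edgeR). It passed without called doublets (1.27, adjusted p = 0.030, edgeR) and in cells with at most 15000 UMIs, and missed the threshold without cells with tumor gene UMIs (adjusted p = 0.075).

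Some cytokine and receptor genes, picked out after their values were seen, are given here by class. The type 2 cytokine Il13 was found in 3.72% of Cd4-bearing and 0.0658% of Cd8-bearing cells, Il4 in 1.33% and 0.0658%, and Il1rl1, the IL-33 receptor, in 10.1% and 1.97%. Csf2, which encodes GM-CSF, was found in 9.31% and 2.24%. In endothelial cells Il13, Il1rl1 and Csf2 were found in 0.0262%, 0.0962% and 0.813%. These shares pool the cells of 6 mice and were not tested.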
